A study of Mus musculus with 15 samples.

Results

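The glycolysis and lactate genes described here were 32 genes chosen by symbol: the glycolytic enzymes with their isozymes, the regulators of phosphofructokinase, a neuronal glucose transporter, the monocarboxylate transporters that carry lactate, and the enzymes of the glycerol phosphate shuttle. They took up 33 of the 30386 gene rows of a mouse brain count table, because Aldoa stands under 2 gene identifiers. Brain RNA had been sequenced from its 3′ ends (QuantSeq, which yields about a read per transcript copy next to the poly(A) tail) in 15 libraries. Het_B12 (n = 5) were Tbx1+/- mice injected intraperitoneally with vitamin B12 at 20 mg/kg in PBS. Het_PBS (n = 5) were Tbx1+/- mice injected with PBS, and WT_PBS (n = 5) were wild-type mice injected with PBS. All 3 groups received 2 injections a week for 4 weeks from 4 weeks of age, and the labels name the tissue both as whole brain and as brain hemisphere. Tbx1 encodes a T-box transcription factor that lies in the region deleted in 22q11.2 deletion syndrome, and Tbx1+/- mice carry a single working copy. Wild-type mice given B12 are not analysed here, so B12 could be compared with PBS in heterozygotes only.

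Glycolysis converts glucose to pyruvate in the cytosol. Hexokinase traps glucose, phosphofructokinase commits it to breakdown, GAPDH makes NADH and pyruvate kinase forms pyruvate, which lactate dehydrogenase interconverts with lactate. In brain, astrocytes and oligodendrocytes are known to pass lactate to neurons through monocarboxylate transporters, which also carry it across the vessel wall. Isozymes differ by cell type, with Eno2 and Slc2a3 long used as neuronal forms and Aldoc, which is not among the 32, as an astrocyte form.

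Totals ran from 1683258 to 2746122 reads per library, so 3 reads, taken as the detection floor, stood for 1.09 to 1.78 CPM (reads scaled to a fixed library total). Tbx1 itself had 1 read in Het_B12, 3 in Het_PBS and 3 in WT_PBS, too few to check the genotype labels. Neuronal, astrocyte, oligodendrocyte and microglial markers all had reads. The share of all reads assigned to Gm42418, a gene model that overlaps ribosomal RNA, differed by group at 3.31 to 6.28% in Het_B12, 6.47 to 10.3% in Het_PBS and 10.6 to 14.9% in WT_PBS. These ranges did not overlap, so the Gm42418 share cannot be told apart from group in any comparison. Its part in the fold changes was not tested. Labels give Het_PBS replicate 5 and Het_B12 replicate 1 the same animal number. Their counts differed with a chi-square per degree of freedom of 10.3, and the closest pair of libraries within any group gave 3.03. Pairs of a Het_PBS and a Het_B12 library ran from 8.44 to 14.5. The counts are therefore not copies of each other, but this cannot show whether the libraries come from different animals. They were kept as separate samples, and results are also given without both. Other libraries stood apart from their groups. On the first principal component of log2 CPM over all tested genes (18.05% of the variance), WT_PBS replicate 3 lay at 17.8, next to the Het_B12 libraries at 19.1 to 32.8 and away from the other 9 PBS libraries at -22.4 to -10.2. Its chi-square per degree of freedom was 6.14 against Het_B12 replicate 4 and 7.16 to 8.28 against the other WT_PBS libraries. WT_PBS replicate 2 was closer to Het_PBS replicate 1 (3.52) than to any WT_PBS library (5.40 or more). Het_PBS replicate 5 lay farthest out on the second component (12.1% of the variance), at 43.5 with the other 14 libraries at -24.4 to 22.5. For that reason WT_PBS replicate 3 and Het_PBS replicate 5 were also left out together. The log2 fold change in Het_B12 against WT_PBS was then 1.10 for Gapdh (edgeR adjusted p = 0.000878) and -0.68 for Slc16a1 (adjusted p = 0.0141). WT_PBS replicate 3 was picked for lying near Het_B12 in these same data, and leaving it out favours larger differences. Genes called in that comparison rose from 859 to 1390, so these values are no independent check of the Gapdh and Slc16a1 calls. The labels name no litters or batches.

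Most of the pathway passed no test. Gapdh was higher and Slc16a1, the gene of the lactate transporter MCT1, was lower in Het_B12 than in WT_PBS brains, and these were the only members past an adjusted p of 0.05 in any of the 3 comparisons. Genotype and treatment both differ between Het_B12 and WT_PBS, so their parts cannot be told apart in that comparison. Of the 33 gene rows, 27 had enough reads to be tested. In Het_B12 against WT_PBS, 2 of 27 members passed, beside 7.33% of the 11718 genes tested. Of the members 1 was higher, beside 3.22% of all genes, and 1 lower, beside 4.11%. In Het_B12 against Het_PBS, 0 of 27 passed, beside 7.26% of all genes (3.47% higher and 3.79% lower), and 2 members (7.41%) had an unadjusted p under 0.05, beside 2540 genes (21.7%). In Het_PBS against WT_PBS, 0 of 27 passed in edgeR's quasi-likelihood test, where 0% of all genes passed, and 1 member and 879 genes had an unadjusted p under 0.05. DESeq2 called 0 members in these 2 comparisons as well. Unadjusted p was under 0.05 for 4 members (14.8%) in Het_B12 against WT_PBS, beside 2526 of all genes (21.6%). Each group serves in 2 of the 3 comparisons, so their results are not independent of each other.

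**Figure D1:**
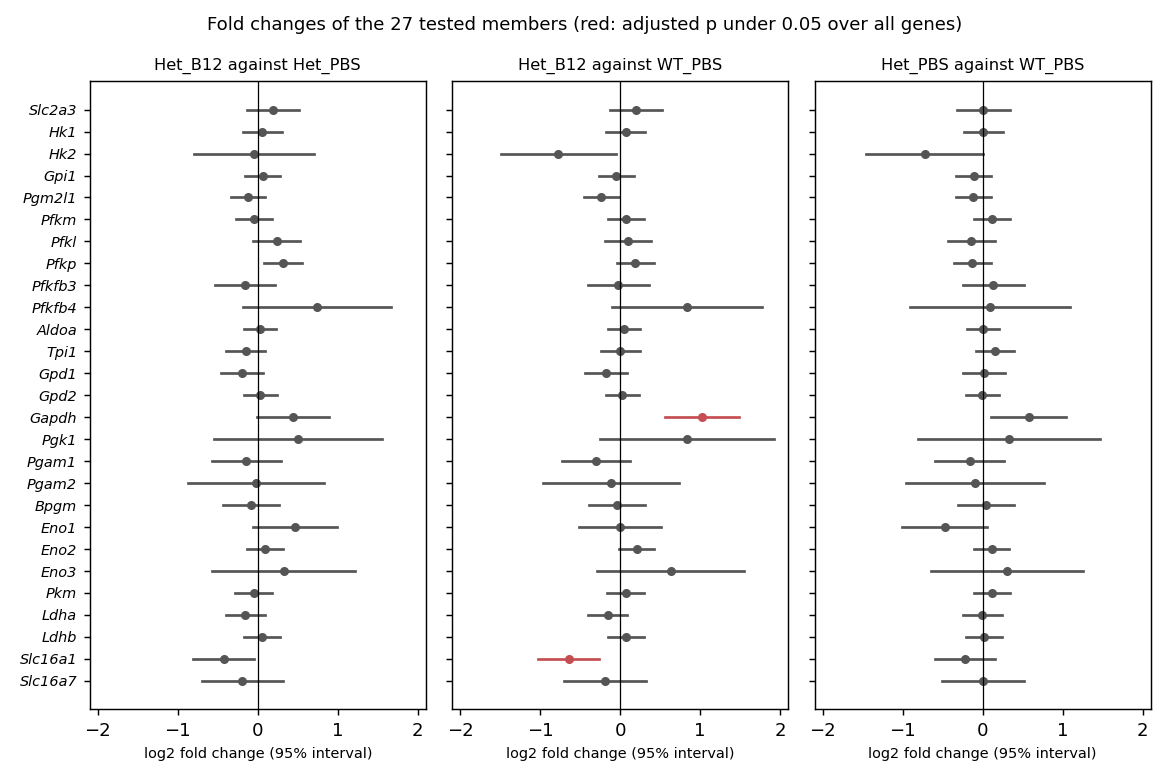
Log2 fold change of the 27 tested members (points) with its 95% interval (lines) in each comparison, from the steps of glucose uptake at the top to lactate transport at the bottom. Red marks an adjusted p under 0.05 over all genes, reached only by Gapdh (1.02) and Slc16a1 (-0.64) in Het_B12 against WT_PBS.

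The median log2 fold change of the 27 members was 0.028 in Het_B12 against WT_PBS, 0.033 in Het_B12 against Het_PBS and 0.010 in Het_PBS against WT_PBS. Over all tested genes the same medians were 0.00732, 0.012 and -0.00698. In Het_B12 against WT_PBS, 20 of 27 members lay within 0.25 of 0 on the log2 scale, as did 20 in Het_B12 against Het_PBS and 22 in Het_PBS against WT_PBS. Of all 11718 genes, 6191, 6220 and 7954 did so in the same order of comparisons. For 12 members with at least 100 CPM that passed in no comparison, the 95% intervals lay between -0.45 and 0.43 in Het_B12 against WT_PBS, between -0.40 and 0.55 in Het_B12 against Het_PBS, and between -0.36 and 0.40 in Het_PBS against WT_PBS. The level of 100 CPM was set after the values were seen. With TMM scaling, changes of 1.5-fold or more were outside each of these intervals, taken singly. That depends in part on how the 12 were chosen, since Gapdh, at 112 CPM over all libraries, was left out as called. Intervals under other scalings were not examined. In an F test for any difference among the 3 groups, 1 of 27 members passed, which was Gapdh (adjusted p = 0.0104), beside 7.75% of all genes. Slc16a1 did not pass it (adjusted p = 0.0596).

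The members held 0.574 ± 0.0236% of all reads in Het_B12, 0.517 ± 0.0289% in Het_PBS and 0.505 ± 0.0387% in WT_PBS (SD, n = 5 each). This share is of raw totals, and the share of Gm42418 in those totals was lowest in Het_B12. With libraries scaled by these totals alone, the median of all tested genes moved to 0.15 in Het_B12 against WT_PBS and 0.14 in Het_B12 against Het_PBS on the log2 scale. The members' medians moved with it, to 0.17 and 0.16 in the same comparisons.

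Promoters of several glycolytic genes are known to carry hypoxia response elements, bound by HIF factors, whose core reads ACGTG or GCGTG. The 250 bases upstream of the start are shown for both genes that passed, from RefSeq on GRCm38.p6, with the sequence on the gene's strand and each core in capitals (a core on the other strand reads CACGT or CACGC).
Gapdh, chr6:125165774-125166023, minus strand: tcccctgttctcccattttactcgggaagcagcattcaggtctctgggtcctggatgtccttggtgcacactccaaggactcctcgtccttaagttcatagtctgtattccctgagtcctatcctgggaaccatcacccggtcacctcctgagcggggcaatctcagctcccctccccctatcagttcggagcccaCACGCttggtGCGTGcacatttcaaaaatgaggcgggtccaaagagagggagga
Slc16a1, chr3:104638414-104638663, plus strand: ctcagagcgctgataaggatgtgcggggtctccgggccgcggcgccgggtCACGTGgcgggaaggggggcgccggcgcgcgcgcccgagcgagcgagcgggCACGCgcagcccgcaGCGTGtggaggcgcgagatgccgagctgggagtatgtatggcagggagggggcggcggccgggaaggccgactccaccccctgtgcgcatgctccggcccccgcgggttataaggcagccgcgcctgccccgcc

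The Gapdh window lies inside the gene's full annotated span, next to the start of a GENCODE transcript, and held 2 cores, beginning 54 and 44 bases before the start. The Slc16a1 window held 4, beginning 200, 199, 149 and 134 bases before it, and the first pair overlap as the 2 strands of a single CACGTG. Its start site in RefSeq was not the start of a GENCODE transcript. Windows were found for 29 of the 32 members, 46 windows in all, and 69.6% of these held a core on either strand, as did 38.6% of 32851 RefSeq windows of the same length. Median GC content was 59.2% in the members' windows and 52.4% in all windows. Matches describe letters only, and no binding was measured.

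Gapdh (ENSMUSG00000057666, chr6:125161715-125166467, minus strand on mm10), the enzyme that oxidises glyceraldehyde 3-phosphate, measured 213, 216, 133, 72.7 and 117 CPM in Het_B12 brains, 112, 89.2, 112, 105 and 136 CPM in Het_PBS brains and 63.6, 134, 92.3, 39.2 and 47.2 CPM in WT_PBS brains. Het_B12 replicates 1 and 2 were the highest of all 15, Het_B12 replicates 3, 4 and 5 lay within the WT_PBS range, and WT_PBS replicates 4 and 5 were the lowest, so the groups overlapped. Means were 150.4 ± 62.5 CPM in Het_B12, 111 ± 16.7 CPM in Het_PBS and 75.3 ± 38.7 CPM in WT_PBS (n = 5 each, error as SD). In edgeR's quasi-likelihood test the log2 fold change was 1.02 ± 0.23 (SE) in Het_B12 against WT_PBS (adjusted p = 0.00448). It was 0.44 ± 0.22 in Het_B12 against Het_PBS (adjusted p = 0.241) and 0.58 ± 0.23 in Het_PBS against WT_PBS (adjusted p = 0.589), neither of which passed. Leaving out each library kept the Het_B12 against WT_PBS difference at 0.85 to 1.33 with an adjusted p of at most 0.0287. DESeq2 did not call it (log2 fold change 0.99, adjusted p = 0.0562), and the F test lost it without Het_B12 replicate 1 or without replicate 2. The spread within Het_B12 was 41.6% of the mean, and within WT_PBS 51.4%.

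The Gapdh count is uncertain for 2 measured reasons. Of the 50-base windows in the last 300 bases of its transcripts, 82.9% also occur in 99 other annotated genes, 96 of them pseudogenes, and no source used here says how reads with several matches were counted. Of these 99, only 3 are in the table, with 4 reads in all. Gapdh averaged 112 CPM over all libraries, beside 1097 for Aldoa, 782 for Pkm and 743 for Eno2. Pgk1, with no shared window, was lower still at 4.23 CPM. Whether reads with several matches were left out of the Gapdh count was not tested. Iffo1 overlaps Gapdh on the opposite strand and had 881 reads against 3939 for Gapdh. Iffo1 measured 27.3, 20.8, 37.7, 30.6 and 41.9 CPM in Het_B12, 14.5, 25.9, 23.3, 31.4 and 23.3 CPM in Het_PBS and 16.8, 12.1, 21.6, 18.3 and 19.6 CPM in WT_PBS. It was higher in Het_B12 than in WT_PBS as well (log2 fold change 0.84 ± 0.22, adjusted p = 0.0147). Whether reads were counted by strand is not stated, so reads of the 2 genes cannot be told apart where they overlap.

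**Figure D2:**
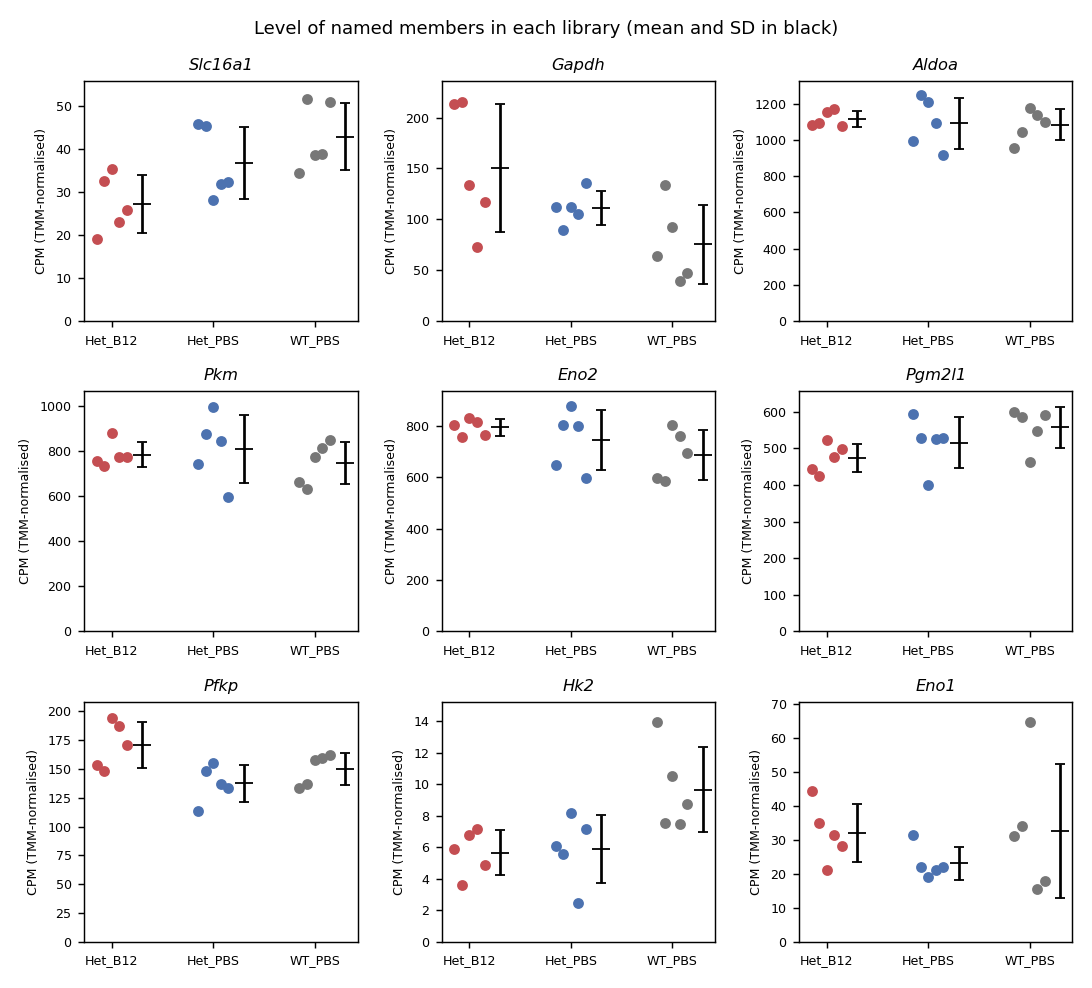
TMM-normalised CPM of 9 members in each library (points; black marks, mean and SD of 5), in Het_B12, Het_PBS and WT_PBS from left to right, each axis from 0. Slc16a1 is lowest in Het_B12, with a mean of 27.2 CPM, and Gapdh spreads widely within Het_B12 and within WT_PBS.

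Slc16a1 (ENSMUSG00000032902, chr3:104638668-104658462, plus strand) encodes MCT1, known in brain from endothelium, astrocytes and oligodendrocytes. It measured 19.1, 32.6, 35.3, 23.04 and 25.8 CPM in Het_B12 brains, 45.9, 45.4, 28.05, 31.8 and 32.3 CPM in Het_PBS brains and 34.5, 51.5, 38.6, 38.8 and 50.98 CPM in WT_PBS brains. Het_B12 replicates 1, 4 and 5 lay below every library of the other groups, while Het_B12 replicate 3 was above the lowest WT_PBS library. Means were 27.2 ± 6.71 CPM in Het_B12, 36.7 ± 8.33 CPM in Het_PBS and 42.9 ± 7.83 CPM in WT_PBS (n = 5 each, error as SD), so the level was 0.640 of WT_PBS in Het_B12 (95% interval 0.492 to 0.831). The log2 fold change was -0.64 ± 0.19 in Het_B12 against WT_PBS (edgeR adjusted p = 0.0283), -0.43 ± 0.19 in Het_B12 against Het_PBS (adjusted p = 0.170) and -0.22 ± 0.19 in Het_PBS against WT_PBS (adjusted p = 0.846). None of its transcript-end windows occurs in another gene, and no other gene of the table overlaps it. The call did not hold without WT_PBS replicate 2 or 5 or without Het_B12 replicate 1, 4 or 5, where adjusted p reached 0.104, while the log2 fold change stayed at -0.76 to -0.55. It did not hold with library totals alone (-0.50, adjusted p = 0.0839) or without both libraries that share an animal number (-0.55, adjusted p = 0.0826).

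Markers of astrocytes and endothelium, both of which carry MCT1, differed between the groups. The summed level of 6 astrocyte markers was 1367 to 1662 CPM in Het_B12, 2291 to 2705 CPM in Het_PBS and 2066 to 3043 CPM in WT_PBS, and 5 of the 6 passed as lower in Het_B12 against WT_PBS and against Het_PBS. The summed level of 5 endothelial markers was 133 to 180.0 CPM in Het_B12, 45.7 to 80.1 CPM in Het_PBS and 41.8 to 73.5 CPM in WT_PBS, and 4 of 5 passed as higher in both comparisons of Het_B12. The 5 oligodendrocyte markers summed to 3721 to 5399.6 CPM in Het_B12, 3641 to 6681 CPM in Het_PBS and 2791 to 6522 CPM in WT_PBS, with 0 of 5 passing in any comparison. Microglial markers summed to 286 to 356 CPM in Het_B12, 463 to 622 CPM in Het_PBS and 377 to 624 CPM in WT_PBS, with 4 of 5 lower in both comparisons of Het_B12. The 5 neuronal markers summed to 4313 to 4945 CPM in Het_B12, 4376 to 4909.6 CPM in Het_PBS and 4389 to 5335 CPM in WT_PBS, with 1 of 5 passing, as higher in Het_B12 against Het_PBS. The 5 blood markers summed to 499 to 979.6 CPM in Het_B12, 778 to 4991 CPM in Het_PBS and 486 to 1297 CPM in WT_PBS, with 5 of 5 lower in Het_B12 against Het_PBS and 0 passing in the other comparisons. The 4 leukocyte markers summed to 9.53 to 14.3 CPM in Het_B12, 27.1 to 91.5 CPM in Het_PBS and 12.3 to 38.4 CPM in WT_PBS, with 3 of 4 lower in Het_B12 against Het_PBS and 2 of 4 against WT_PBS. Lists of 4 markers each for pericytes and smooth muscle, choroid plexus and skeletal muscle had 0 passing in any comparison. Only 3, 4 and 1 of them, in that order, had enough reads to be tested. Every one of these markers had reads. The part of cell makeup in the levels of Slc16a1 or any other member was not tested, and in bulk RNA fewer cells of a type and less RNA per cell cannot be told apart.

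The other lactate transporters gave no call. Slc16a7, which encodes the high-affinity neuronal form MCT2, averaged 14.7 ± 3.64 CPM in Het_B12, 16.7 ± 5.37 CPM in Het_PBS and 16.9 ± 3.65 CPM in WT_PBS. Slc16a3, encoding MCT4 of glycolytic cells, had too few reads to test, with 47 reads in Het_B12, 23 in Het_PBS and 27 in WT_PBS. Of the reads of the 3 transporters, Slc16a1 held 59.8 ± 8.98% in Het_B12, 66.04 ± 7.06% in Het_PBS and 68.8 ± 4.94% in WT_PBS. These shares are of reads and not corrected for how well each transcript end is captured.

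Lactate dehydrogenase is a tetramer of A and B subunits, Ldha favouring lactate formation and Ldhb pyruvate formation. Ldha averaged 122 ± 13.4 CPM in Het_B12, 136 ± 22.7 CPM in Het_PBS and 136 ± 7.03 CPM in WT_PBS. Ldhb averaged 292 ± 35.5 CPM in Het_B12, 282 ± 26.2 CPM in Het_PBS and 278 ± 38.1 CPM in WT_PBS. Neither subunit gene passed in any comparison. Ldhb held 70.4 ± 2.51% in Het_B12, 67.5 ± 2.42% in Het_PBS and 66.9 ± 3.33% in WT_PBS of the reads of the pair. The mean log2 ratio of Ldha to Ldhb counts was -1.25 ± 0.17 in Het_B12, -1.06 ± 0.16 in Het_PBS and -1.02 ± 0.22 in WT_PBS. The difference was -0.24 in Het_B12 against WT_PBS and -0.19 in Het_B12 against Het_PBS, both with overlapping groups. The exact two-sided permutation p, adjusted over 9 ratio tests, was 0.25 for Het_B12 against WT_PBS and 0.214 for Het_B12 against Het_PBS.

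**Figure D3:**
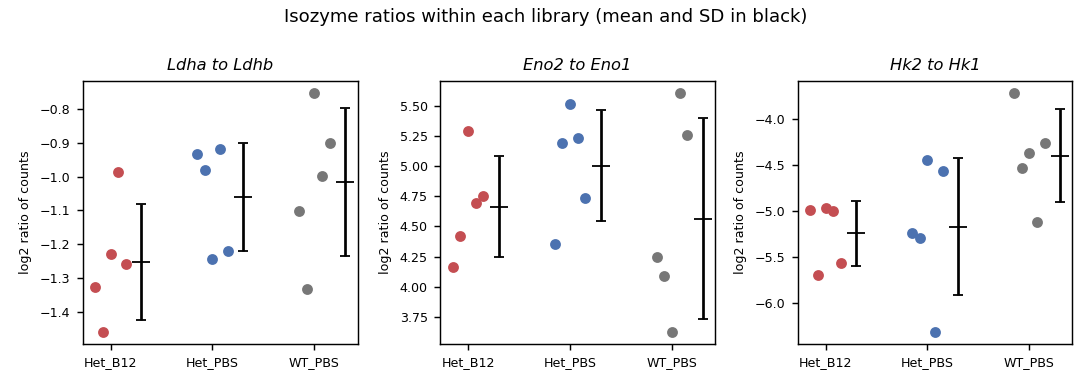
Log2 ratio of counts of 3 isozyme pairs within each library (points; black marks, mean and SD of 5) in Het_B12, Het_PBS and WT_PBS. The groups overlap in each pair, and 0 of 9 permutation tests passed after adjustment.

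Among the entry steps, Hk1, the hexokinase bound to mitochondria in neurons, averaged 216 ± 21.3 CPM in Het_B12, 207 ± 26.5 CPM in Het_PBS and 206 ± 39.8 CPM in WT_PBS. Hk2, an inducible hexokinase, measured 5.91, 3.58, 6.79, 7.15 and 4.88 CPM in Het_B12 brains, 6.08, 5.57, 8.20, 2.48 and 7.17 CPM in Het_PBS brains and 13.96, 7.52, 10.5, 7.51 and 8.77 CPM in WT_PBS brains. The highest Het_B12 library (7.15 CPM) lay below the lowest WT_PBS library (7.51 CPM), and Hk2 was the 1 member of 27 whose groups did not overlap in Het_B12 against WT_PBS, beside 5.38% of all genes. Both of these libraries had 18 Hk2 reads, so the gap between them came from the scaling. Raw Hk2 reads overlapped, at 13, 10, 20, 18 and 14 in Het_B12 and 34, 13, 18, 18 and 21 in WT_PBS. The log2 fold change of Hk2 was -0.77 ± 0.36 in Het_B12 against WT_PBS (edgeR adjusted p = 0.196). In Het_PBS against WT_PBS it was -0.72 ± 0.36 (adjusted p = 0.660), and neither was past the threshold. No member separated its groups in Het_B12 against Het_PBS, beside 7.83% of all genes, or in Het_PBS against WT_PBS, beside 0.836%. The log2 ratio of Hk2 to Hk1 was -5.24 ± 0.36 in Het_B12, against -4.40 ± 0.51 in WT_PBS. That difference gave an exact two-sided permutation p of 0.0317, or 0.214 adjusted over the 9 ratio tests, with 0.00794 the smallest p that 5 against 5 allows. Hk1 held 96.3 ± 0.544% in Het_B12, 96.1 ± 1.47% in Het_PBS and 94.3 ± 2.35% in WT_PBS of hexokinase reads.

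Hkdc1, a hexokinase-like gene next to Hk1 on chromosome 10, had 37 reads in Het_B12, 25 in Het_PBS and 28 in WT_PBS and was not tested. Adpgk, an ADP-dependent glucokinase, was not tested either, with 32 reads in Het_B12, 34 in Het_PBS and 41 in WT_PBS, and Bbs4 on the opposite strand had 2428 reads. Slc2a3, the neuronal glucose transporter GLUT3, averaged 49.9 ± 5.47 CPM in Het_B12, 43.7 ± 9.46 CPM in Het_PBS and 43.8 ± 8.72 CPM in WT_PBS. Gpi1, which turns glucose 6-phosphate into fructose 6-phosphate, averaged 316 ± 31.3 CPM in Het_B12, 303 ± 28.3 CPM in Het_PBS and 327 ± 42.5 CPM in WT_PBS. None of these values passed a test.

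Pgm2l1, a glucose 1,6-bisphosphate synthase highly expressed in brain, measured 444, 425, 523, 477 and 498 CPM in Het_B12 brains, 593, 528, 400.4, 525 and 529 CPM in Het_PBS brains and 599.9, 586, 462, 548 and 590.0 CPM in WT_PBS brains. Its mean was lowest in Het_B12, yet the groups overlapped. The log2 fold change was -0.24 ± 0.11 in Het_B12 against WT_PBS (edgeR adjusted p = 0.187).

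Phosphofructokinase, the committing step, is built from 3 subunit genes. Pfkp, the platelet-type subunit also abundant in brain, measured 153, 148, 195, 187 and 171 CPM in Het_B12 brains, 113, 149, 155, 137 and 133 CPM in Het_PBS brains and 133, 137, 158, 159 and 163 CPM in WT_PBS brains. The 3 highest libraries were all Het_B12 but the groups overlapped, and the log2 fold change against Het_PBS was 0.31 ± 0.12 (edgeR adjusted p = 0.0917), which did not pass. It did pass with library totals alone (0.44, adjusted p = 0.0127) and with a mean count of at least 50 (0.34, adjusted p = 0.0372), while an offset for transcript length gave 0.18 (adjusted p = 0.421). Pitrm1 on the opposite strand had 663 reads against 5417 for Pfkp. Pfkm, the muscle-type subunit, averaged 118 ± 4.93 CPM in Het_B12, 122 ± 11.04 CPM in Het_PBS and 112 ± 6.67 CPM in WT_PBS. Pfkl, the liver-type subunit, averaged 73.5 ± 13.02 CPM in Het_B12, 61.99 ± 8.44 CPM in Het_PBS and 68.4 ± 11.4 CPM in WT_PBS. Neither of these subunits passed in any comparison. Pfkp held 47.1 ± 2.96% in Het_B12, 42.8 ± 4.42% in Het_PBS and 45.4 ± 2.06% in WT_PBS of the reads of the 3 subunits. Pfkm held 32.6 ± 3.11% in Het_B12, 37.97 ± 4.08% in Het_PBS and 34.0 ± 2.21% in WT_PBS.

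The PFKFB enzymes set fructose 2,6-bisphosphate, the activator of phosphofructokinase. Pfkfb3, the strongly activating form, averaged 29.3 ± 4.13 CPM in Het_B12, 32.6 ± 5.18 CPM in Het_PBS and 29.9 ± 6.81 CPM in WT_PBS. Pfkfb4 averaged 7.50 ± 4.28 CPM in Het_B12, 4.55 ± 2.58 CPM in Het_PBS and 4.21 ± 1.78 CPM in WT_PBS, with a log2 fold change of 0.83 ± 0.46 in Het_B12 against WT_PBS that did not pass (edgeR adjusted p = 0.304). Pfkfb1 (2 reads in Het_B12, 13 in Het_PBS and 7 in WT_PBS) and Pfkfb2 (31 reads in Het_B12, 12 in Het_PBS and 25 in WT_PBS) were not tested. Apex2 opposite Pfkfb1 had 108 reads and Yod1 opposite Pfkfb2 had 517, more than the members themselves. Pfkfb3 held 75.2 ± 5.33% in Het_B12, 82.9 ± 6.08% in Het_PBS and 80.4 ± 7.74% in WT_PBS of the family's reads.

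Aldoa, the aldolase that splits fructose 1,6-bisphosphate, took the most reads of all members. It measured 1079.7, 1095, 1156, 1171 and 1079.5 CPM in Het_B12 brains, 994, 1245, 1209, 1091 and 917 CPM in Het_PBS brains and 957, 1043, 1179, 1139.6 and 1101 CPM in WT_PBS brains. The Het_B12 range and the WT_PBS range both lay inside that of Het_PBS, and its log2 fold change was 0.043 ± 0.099 in Het_B12 against WT_PBS (edgeR adjusted p = 0.847). The other Aldoa identifier, ENSMUSG00000114515, had 0 reads in 15 libraries. Taken singly, a library with 0 reads allows up to 3, and the 15 together allow less than that in each. Tpi1, triosephosphate isomerase, averaged 224 ± 38.2 CPM in Het_B12, 249 ± 29.1 CPM in Het_PBS and 224 ± 26.3 CPM in WT_PBS.

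**Figure D4:**
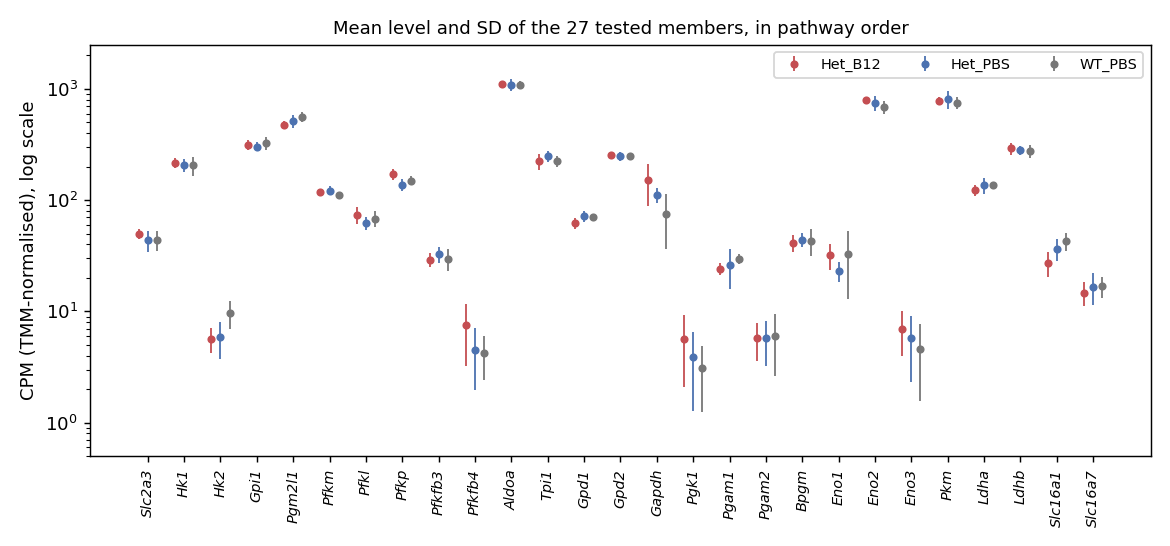
Mean TMM-normalised CPM (points) and SD (bars, n = 5) of the 27 tested members on a log axis, in pathway order, for Het_B12, Het_PBS and WT_PBS. The lowest mean is that of Pgk1, at 3.08 CPM in WT_PBS, and the highest those of Aldoa, with 1084 CPM in WT_PBS; for most members the SD bars of the 3 groups overlap.

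The glycerol phosphate shuttle, which carries electrons of cytosolic NADH to mitochondria, gave no call. Gpd1, its cytosolic enzyme, averaged 62.3 ± 7.41 CPM in Het_B12, 71.4 ± 8.14 CPM in Het_PBS and 70.6 ± 4.51 CPM in WT_PBS. Gpd2, its mitochondrial enzyme, averaged 253 ± 18.5 CPM in Het_B12, 247 ± 21.6 CPM in Het_PBS and 248 ± 10.5 CPM in WT_PBS. The log2 fold changes of Gpd1 lay between -0.20 (Het_B12 against Het_PBS) and 0.020 (Het_PBS against WT_PBS), and those of Gpd2 between -0.00544 (Het_PBS against WT_PBS) and 0.034 (Het_B12 against Het_PBS).

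In lower glycolysis, Pgk1, the first enzyme to form ATP, had 74 reads in Het_B12, 44 in Het_PBS and 34 in WT_PBS and averaged 5.68 ± 3.58 CPM in Het_B12, 3.93 ± 2.66 CPM in Het_PBS and 3.08 ± 1.82 CPM in WT_PBS. Its log2 fold change of 0.83 ± 0.54 in Het_B12 against WT_PBS did not pass (edgeR adjusted p = 0.383), and its interval ran from -0.25 to 1.92. Pgam1, the general phosphoglycerate mutase, averaged 24.2 ± 2.997 CPM in Het_B12, 26.3 ± 10.4 CPM in Het_PBS and 29.9 ± 3.24 CPM in WT_PBS. Pgam2, the muscle mutase, averaged 5.72 ± 2.17 CPM in Het_B12, 5.73 ± 2.52 CPM in Het_PBS and 6.07 ± 3.47 CPM in WT_PBS. Bpgm, which makes 2,3-bisphosphoglycerate, averaged 41.5 ± 7.02 CPM in Het_B12, 44.1 ± 6.52 CPM in Het_PBS and 43.2 ± 11.99 CPM in WT_PBS. No mutase passed in any comparison.

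Eno2, neuronal enolase, measured 804, 756, 832, 816 and 765 CPM in Het_B12 brains, 646, 805, 876, 801 and 596 CPM in Het_PBS brains and 595, 586, 804, 762 and 695 CPM in WT_PBS brains. The lowest Het_B12 library was above the WT_PBS mean, but the ranges overlapped, and the log2 fold change was 0.21 ± 0.11 in Het_B12 against WT_PBS (edgeR adjusted p = 0.271). It passed with library totals alone (0.34, adjusted p = 0.0421). Eno1, the widespread enolase, measured 44.6, 35.1, 21.1, 31.4 and 28.3 CPM in Het_B12 brains, 31.4, 21.9, 18.98, 21.1 and 22.1 CPM in Het_PBS brains and 31.2, 34.1, 64.9, 15.4 and 17.97 CPM in WT_PBS brains. WT_PBS libraries covered both extremes of Eno1, and the log2 fold change was -0.47 ± 0.26 in Het_PBS against WT_PBS (edgeR adjusted p = 0.702). WT_PBS replicate 3 decided that size, and without it the log2 fold change was -0.074 (adjusted p = 0.965). In Het_B12 against WT_PBS the log2 fold change of Eno1 was -0.00657 ± 0.25 with all libraries and 0.38 without WT_PBS replicate 3, and neither passed. Eno1 is also uncertain, because 87.9% of its transcript-end windows occur in Eno1b, which had 12 reads. Eno3, the muscle enolase, averaged 6.999 ± 2.99 CPM in Het_B12, 5.75 ± 3.44 CPM in Het_PBS and 4.64 ± 3.06 CPM in WT_PBS. Eno2 held 95.3 ± 1.04% in Het_B12, 96.1 ± 1.42% in Het_PBS and 94.9 ± 2.46% in WT_PBS of enolase reads.

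Pkm, pyruvate kinase, measured 759.7, 736, 882, 774 and 774 CPM in Het_B12 brains, 745, 876, 997, 847 and 597 CPM in Het_PBS brains and 666, 633, 775, 814 and 853 CPM in WT_PBS brains. Het_PBS libraries spread the most, and all 3 groups overlapped. Its log2 fold change was 0.069 ± 0.11 in Het_B12 against WT_PBS (edgeR adjusted p = 0.776). The M1 and M2 forms of Pkm share their 3′ ends, so these reads do not separate them.

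**Figure D5:**
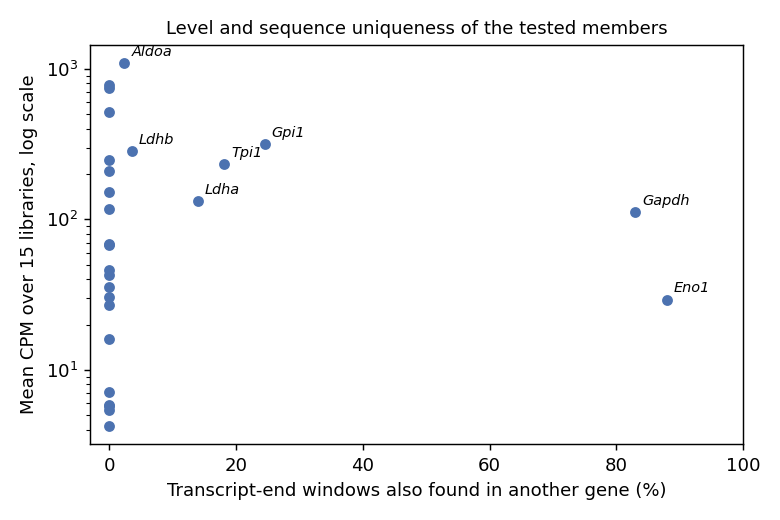
Share of 50-base windows in the last 300 transcript bases that also occur in another annotated gene (x axis, percent) and mean CPM over 15 libraries on a log axis, for the 27 tested members (points). Only Gapdh (82.9%) and Eno1 (87.9%) lie above 50%, and named points are the members with any shared window.

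Shared sequence touched 7 of the 32 members with reads, and 2 of them in more than 50% of the windows, as the plot of level and sequence uniqueness shows. The median biological coefficient of variation was 0.146 for the 27 members and 0.196 for all tested genes, at a median level of 68.1 CPM for members and 25.1 CPM for all. Eno2, Tpi1 and Gapdh lie within the same stretch of chromosome 6.

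A further 46 genes next to the pathway, such as pyruvate entry, the pentose phosphate branch, glycogen and glucose uptake, were read in the same fit, and 32 were tested. In Het_B12 against WT_PBS, 2 passed as higher and 4 as lower, where 7.33% of all genes passed. In Het_B12 against Het_PBS, 1 passed as higher and 2 as lower, where 7.26% of all genes passed, and in Het_PBS against WT_PBS 0 passed, with 2 at an unadjusted p under 0.05. Their median log2 fold change was -0.14 in Het_B12 against WT_PBS, -0.072 in Het_B12 against Het_PBS and -0.065 in Het_PBS against WT_PBS. Without Het_B12 replicate 1 the count in Het_B12 against WT_PBS was 3, and without WT_PBS replicate 4 it was 3; the count in Het_B12 against Het_PBS was 1 without Het_B12 replicate 1 and 1 without Het_B12 replicate 3.

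Slc2a1, the glucose transporter GLUT1 of the blood-brain barrier, was higher, at 33.4 ± 7.04 CPM in Het_B12 against 17.6 ± 4.36 CPM in WT_PBS (log2 fold change 0.91 ± 0.22, adjusted p = 0.00627). It was also higher beside PBS heterozygotes, at 33.4 ± 7.04 CPM in Het_B12 against 20.02 ± 4.88 CPM in Het_PBS (log2 fold change 0.74 ± 0.21, adjusted p = 0.0262), a call lost when any of Het_B12 replicates 1, 2 or 3 or Het_PBS replicates 4 or 5 was left out. The endothelial marker sums above were also higher in Het_B12. Aldoc, the astrocyte aldolase, was lower, at 1112 ± 154 CPM in Het_B12 against 1630.2 ± 271 CPM in Het_PBS (log2 fold change -0.55 ± 0.12, adjusted p = 0.00257), as were 5 of 6 astrocyte markers. It kept its call when any single library was left out, but not without both libraries that share an animal number (adjusted p = 0.0548). Against WT_PBS, at 1385 ± 224 CPM, Aldoc in Het_B12 did not pass (log2 fold change -0.32 ± 0.12, edgeR adjusted p = 0.101). The part of cell makeup in either gene was not tested.

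Around pyruvate, Pdk2, a kinase that inhibits pyruvate dehydrogenase, was lower, at 67.8 ± 5.70 CPM in Het_B12 against 112 ± 33.2 CPM in WT_PBS (log2 fold change -0.73 ± 0.16, adjusted p = 0.00247). Mpc1, a subunit of the mitochondrial pyruvate carrier, was lower, at 13.0 ± 3.78 CPM in Het_B12 against 24.4 ± 5.98 CPM in WT_PBS (log2 fold change -0.90 ± 0.24, adjusted p = 0.0142), a call lost without WT_PBS replicate 4 or Het_B12 replicate 1. Pdha1, the E1 alpha subunit of pyruvate dehydrogenase, was lower, at 105 ± 11.6 CPM in Het_B12 against 139 ± 20.5 CPM in WT_PBS (log2 fold change -0.41 ± 0.12, adjusted p = 0.0274). Its call was lost without WT_PBS replicate 4 or 5 or Het_B12 replicate 1, 2 or 4, and with library totals alone (adjusted p = 0.144). Pgls, which hydrolyses 6-phosphogluconolactone in the pentose phosphate pathway, was lower, at 41.5 ± 10.9 CPM in Het_B12 against 71.4 ± 18.8 CPM in WT_PBS (log2 fold change -0.79 ± 0.18, adjusted p = 0.00495). Pdk2 and Pgls kept their calls in all leave-one-out fits. In Het_B12 against Het_PBS, Pdk2 (log2 fold change -0.41, edgeR adjusted p = 0.108) and Mpc1 (-0.69, adjusted p = 0.0667) did not pass. Nor did Pdha1 (-0.28, adjusted p = 0.147) or Pgls (-0.48, adjusted p = 0.104) in that comparison. The other genes that passed, named after their values were seen, were Pygb, the brain glycogen phosphorylase, with a log2 fold change of -0.44 in Het_B12 against Het_PBS, and G6pc3, a glucose 6-phosphatase, with 0.61 in Het_B12 against WT_PBS, and each was lost in 4 or more leave-one-out fits. Without both libraries that share an animal number, the calls of Pdha1, Pygb and G6pc3 and that of Slc2a1 in Het_B12 against Het_PBS were also lost. Pygb did not pass in Het_B12 against WT_PBS (log2 fold change -0.31, edgeR adjusted p = 0.148). G6pc3 did not pass in Het_B12 against Het_PBS (0.46, adjusted p = 0.111).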

How the data were processed

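Mouse brain RNA was sequenced from its 3′ ends in 15 libraries, and the authors deposited raw counts per gene. For these the submitters' processing notes name STAR, HTSeq, edgeR and the build mm10, without their roles. No source used here gives the aligner settings, the annotation or the strand setting. The 32 members, the pathway and marker lists and the tests were chosen with earlier results of these data known. Library totals were 1683258 to 2746122 reads; floors of 3 reads cover counting error only.

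Counts were tested with edgeR 4.0.16 in R 4.3.3 (filterByExpr, TMM factors, quasi-likelihood test, a mean per group over all 15 libraries), with Benjamini-Hochberg adjustment over the 11718 genes kept of 30386. CPM are TMM-normalised. Errors are SD of 5 libraries for levels and SE for log2 fold changes. Isozyme ratios, with 0.5 added to each count, used exact two-sided permutation tests in scipy 1.17.1, adjusted over 9. The fit was also run on counts simulated from its own means and spreads. Such counts hold no outlying libraries, so that run does not check the calls against them. Alternatives used DESeq2 1.42.0, limma 3.58.1, other scaling and filters, a transcript-length offset, a replicate block and left-out libraries. Members given in every library were those that passed, the 4 with the highest CPM and the 3 next by F-test p; of the neighbouring genes, the 6 with the smallest p among those that passed. Positions and the transcript-end windows come from GENCODE M21, promoters from RefSeq (GRCm38.p6). Protein sequences were not used here.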

Additional observations from a re-analysis of the deposited data

Results flagged for a closer look

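In a group of 5 libraries, a value is listed here when its gap to the nearest other library exceeds Dixon's 95% limit for that group. Of 81 groups examined (27 members in 3 groups), 5 did so, where chance alone lists about 1 in 20. Bpgm was 53.7 CPM in Het_B12 replicate 2, and 35.99 to 40.01 CPM in the other Het_B12 libraries. Pkm was 882 CPM in Het_B12 replicate 3, and 736 to 774 CPM in the others. Eno1 was 31.4 CPM in Het_PBS replicate 1, and 19.0 to 22.1 CPM in the others. Slc16a7 was 26.0 CPM in Het_PBS replicate 4, and 12.5 to 15.9 CPM in the others. Eno3 was 9.93 CPM in WT_PBS replicate 3, and 2.50 to 4.60 CPM in the others. These values fall in 5 different libraries and 5 different genes, none of which passed in a comparison.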

How the results depend on the processing

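With library totals alone, members called were 1 in Het_B12 against Het_PBS (Pfkp) and 2 in the F test; signs turned for Pkm (0.083), Pgm2l1 (0.00857) and Hk2 (0.076) in Het_B12 against Het_PBS and Eno1 in Het_B12 against WT_PBS (0.13). Without a filter on low counts, 40 genes and 1 member (Gapdh, adjusted p = 0.0123) passed in Het_PBS against WT_PBS, 1 member (Gapdh, 0.0219) in Het_B12 against Het_PBS and 2 in the F test. With a mean count of at least 50, 1 member (Pfkp) passed in Het_B12 against Het_PBS; Hk2 has no value there. DESeq2 called 1 member in Het_B12 against WT_PBS, and the length offset 2 in the F test. The Eno1 difference of -0.00657 in Het_B12 against WT_PBS turned to 0.00283 without a filter, 0.016 at a mean of 50, 0.17 with limma-voom, 0.055 with the replicate block and 0.026 with the length offset. Limma-voom turned Hk2 in Het_B12 against Het_PBS to 0.016, and the length offset Aldoa in Het_PBS against WT_PBS to -0.034. Without WT_PBS 3 and Het_PBS 5 together, genes called were 1 in Het_PBS against WT_PBS and 1390 in Het_B12 against WT_PBS, neighbouring genes 5 in Het_B12 against Het_PBS and members 2 in the F test; Aldoa (-0.033) and Hk2 (0.013) turned in Het_B12 against Het_PBS and Eno1 (0.38) in Het_B12 against WT_PBS. Without Het_PBS 5 and Het_B12 1 together, 2 genes passed in Het_PBS against WT_PBS, 437 genes and 1 neighbouring gene in Het_B12 against Het_PBS and 1 member in Het_B12 against WT_PBS; Aldoa (-0.012) and Hk2 (0.00637) turned in Het_B12 against Het_PBS. Differences of medians turned Ldha to Ldhb in Het_PBS against WT_PBS (0.018) and Hk2 to Hk1 in Het_B12 against Het_PBS (0.24). The cause of these changes was not tested. Leaving out each library gave 449 to 1268 genes in Het_B12 against WT_PBS (477 and 449 without WT_PBS 1 or 5, 515 and 513 without Het_B12 1 or 2), 549 to 743 in Het_B12 against Het_PBS (549 without Het_B12 1) and 0 to 14 in Het_PBS against WT_PBS; members 1 to 2 in Het_B12 against WT_PBS and 0 to 2 in the F test; neighbouring genes 3 to 8 in Het_B12 against WT_PBS and 1 to 3 in Het_B12 against Het_PBS. Log2 fold changes that turned then spanned -0.042 to 0.066 for Aldoa in Het_PBS against WT_PBS, -9.04e-05 to 0.074 for Aldoa in Het_B12 against WT_PBS, -0.19 to 0.38 for Eno1 in Het_B12 against WT_PBS, -0.025 to 0.084 for Aldoa in Het_B12 against Het_PBS, -0.14 to 0.033 for Pkm in Het_B12 against Het_PBS, -0.25 to 0.11 for Hk2 in Het_B12 against Het_PBS, -0.14 to 0.36 for Eno2 to Eno1 in Het_B12 against WT_PBS, -0.36 to 0.11 for Hk2 to Hk1 in Het_B12 against Het_PBS and -0.12 to 0.024 for Ldha to Ldhb in Het_PBS against WT_PBS. The alternatives for neighbouring genes were chosen after seeing the data. Correlations of same-numbered libraries were -0.0933 to 0.106. The counts thus showed no pairing by replicate number, which cannot tell whether animals shared litters or batches in another order. The replicate block changed no call of a member. Low read numbers limit the 5 untested members and the low ones, such as Pgk1 and Hk2, whose intervals exceed 1.5-fold. Pgk1 had 152 reads in all, where Tpi1 had 8077 in the same libraries, and the reason was not tested.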
